A study of Mus musculus with 12 samples.

Results

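The Hox genes encode homeodomain transcription factors and lie in 4 clusters, HoxA, HoxB, HoxC and HoxD. They were examined through every deposited peak that overlapped 1 of 4 mm9 windows, 1 per cluster. The HoxA window was chr6:52095000-52220000 (125 kb), the HoxB window chr11:96045000-96240000 (195 kb), the HoxC window chr15:102740000-102880000 (140 kb) and the HoxD window chr2:74490000-74615000 (125 kb). They spanned 585 kb and held 67 of the 353805 peaks used from the 11 lists, of which 46 were H3K4me2 peaks. Neither H3K27ac library had a peak in any window. The mouse RefSeq table (GRCm38.p6) lists 39 Hox genes, 11 in HoxA, 10 in HoxB, 9 in HoxC and 9 in HoxD. That build differs from mm9, so the table gave only the names and the order of the genes, and no peak was assigned to a gene.

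The study profiled C57BL/6 mouse embryos at embryonic day 14.5. The ChIP-seq was done on whole fetal liver, with 3 libraries of H3K4me1 and 2 each of H3K27ac, H3K4me3 and H3K4me2, and an input control for which no peak list was used here. Open chromatin was mapped by ATAC-seq, which tags DNA that a transposase can reach, in 2 libraries of proerythroblasts, the earliest red cell precursors that can be recognised by shape. Whole fetal liver is a mixture of red cell precursors, other blood cells and hepatocytes, and in such a mixture fewer cells with a mark and less of the mark per cell cannot be told apart. For H3K4me2 the labels name antibodies of different suppliers in the sample characteristics and in the protocol, and every H3K4me2 value below rests on whichever was used. The peak names in the 3 H3K4me1 lists hold the letters Mel where the sample titles have Me1, and these lists were taken to be what their labels say. The labels do not say whether libraries of a mark came from separate embryos, so the spread between them may be technical. Liver and red cell markers were not checked, because no gene position on mm9 was at hand.

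Hox proteins set the identity of segments along the body axis, and the order of the genes in a cluster follows the order in which they are switched on, with group 13 genes at the posterior end. In tissues that do not use them the clusters are commonly held silent by Polycomb proteins, which place H3K27me3, a mark that was not measured here. In blood formation, HoxA and HoxB genes such as Hoxa9 and Hoxb4 are known for their activity in stem and progenitor cells, and their expression falls as cells mature. H3K4me3 marks active and poised promoters, H3K4me2 marks promoters and enhancers, H3K4me1 marks enhancers and promoter flanks, and H3K27ac marks active promoters and enhancers.

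Promoter sequences are shown because H3K4me3 in mammals sits chiefly on CG-rich promoters, and they let a reader see how CG-rich or CG-poor the Hox promoters are. RefSeq promoters (GRCm38.p6) were found for 22 of the 39 Hox genes, as 24 entries (9 HoxA, 3 HoxB, 1 HoxC and 9 HoxD genes). The 250 bases upstream of the start held a median of 12.5 CG dinucleotides in the Hox entries, with a range of 2 to 35. Over all 32851 promoter entries the median was 6. Of the 24 Hox entries, 19 lay above that median, against 46.3% of all entries. The entries with the most and the fewest CG in each cluster follow, 5′ to 3′ on the gene's strand, with CG in capitals. HoxC has a single entry. The HoxA entries are on the minus strand and the others on the plus strand. None was placed on the mm9 peaks.
Hoxa13: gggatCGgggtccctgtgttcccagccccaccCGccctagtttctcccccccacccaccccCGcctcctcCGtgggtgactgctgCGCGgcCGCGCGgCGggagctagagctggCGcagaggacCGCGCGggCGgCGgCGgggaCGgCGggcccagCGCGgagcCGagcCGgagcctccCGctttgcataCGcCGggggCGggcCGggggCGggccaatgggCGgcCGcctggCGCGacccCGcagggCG
Hoxa9: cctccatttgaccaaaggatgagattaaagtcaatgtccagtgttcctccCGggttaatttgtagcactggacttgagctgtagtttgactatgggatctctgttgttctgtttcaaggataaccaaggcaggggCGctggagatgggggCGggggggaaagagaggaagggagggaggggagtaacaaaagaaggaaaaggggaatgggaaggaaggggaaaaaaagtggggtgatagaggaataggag
Hoxb4: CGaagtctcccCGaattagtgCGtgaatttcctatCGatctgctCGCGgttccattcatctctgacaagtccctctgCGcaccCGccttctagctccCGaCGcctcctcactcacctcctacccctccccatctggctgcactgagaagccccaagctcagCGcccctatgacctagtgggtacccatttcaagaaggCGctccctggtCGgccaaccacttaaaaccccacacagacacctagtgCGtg
Hoxb1: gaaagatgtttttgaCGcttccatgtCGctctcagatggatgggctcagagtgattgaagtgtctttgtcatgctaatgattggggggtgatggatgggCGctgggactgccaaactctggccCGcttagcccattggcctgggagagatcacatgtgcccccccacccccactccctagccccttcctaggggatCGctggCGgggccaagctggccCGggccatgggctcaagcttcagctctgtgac
Hoxc4: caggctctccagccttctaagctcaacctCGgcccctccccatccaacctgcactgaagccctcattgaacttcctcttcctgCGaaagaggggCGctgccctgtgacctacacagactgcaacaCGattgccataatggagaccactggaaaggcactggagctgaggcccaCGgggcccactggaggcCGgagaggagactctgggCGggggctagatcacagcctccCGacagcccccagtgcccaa
Hoxd13: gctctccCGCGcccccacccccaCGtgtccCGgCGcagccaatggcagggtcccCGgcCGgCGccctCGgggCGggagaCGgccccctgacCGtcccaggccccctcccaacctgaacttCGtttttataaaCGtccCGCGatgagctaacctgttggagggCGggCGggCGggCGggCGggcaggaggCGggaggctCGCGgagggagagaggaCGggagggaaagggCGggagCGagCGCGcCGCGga
Hoxd11: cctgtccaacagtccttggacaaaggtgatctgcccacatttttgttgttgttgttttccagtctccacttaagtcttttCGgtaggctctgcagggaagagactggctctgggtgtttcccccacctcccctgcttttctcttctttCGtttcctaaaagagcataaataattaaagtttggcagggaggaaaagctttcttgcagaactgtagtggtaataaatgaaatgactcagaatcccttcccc
Hoxa13, a gene of limb and posterior identity, had the most CG, 35 (80% GC). Hoxd13, which acts in digits, had 31. Hoxa9, a regulator of blood progenitors, had 3, and 1 of the 2 starts of Hoxd11, a gene of forelimb and kidney, had 2. Hoxb4, also active in blood stem cells, had 14, Hoxc4 had 8 and Hoxb1, a hindbrain gene, had 7.

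H3K4me2 was the only mark with peaks of both libraries in all 4 windows, and HoxA had the most peaks. The 11 lists together placed 29 peaks in HoxA, 14 in HoxB, 5 in HoxC and 19 in HoxD. H3K4me2 replicate 1 had 33 Hox peaks (12, 8, 3 and 10 in HoxA, HoxB, HoxC and HoxD) and replicate 2 had 13 (6, 2, 1 and 4). H3K4me3 replicate 1 had 3 peaks, all in HoxA, and replicate 2 had 6, of which 4 were in HoxA and 2 in HoxB. HoxC and HoxD had no H3K4me3 peak in either library. H3K4me1 replicate 1 had 8 Hox peaks, replicate 3 had 2 and replicate 2 had none. The ATAC libraries had 1 Hox peak each, in different clusters. A window without a peak is one where no stretch passed the caller's threshold, and the lists hold no read counts from which a level could be given.

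**Figure D1:**
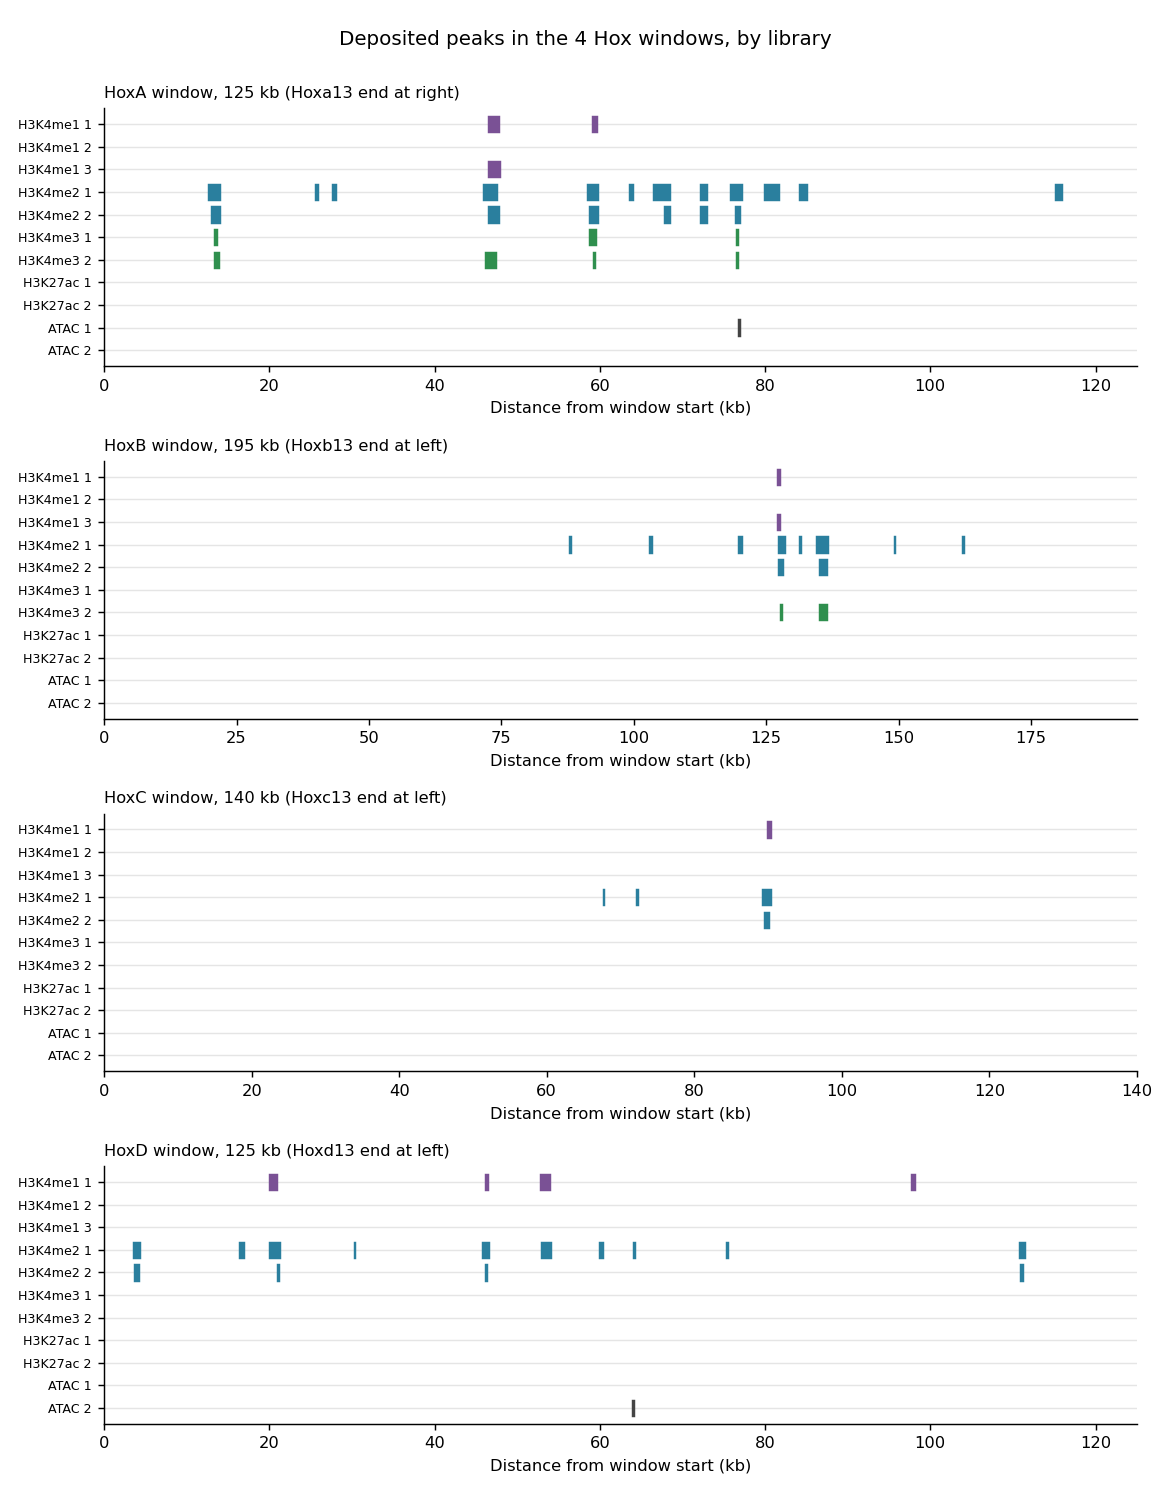
Peaks of each of the 11 libraries (rows) along the 4 Hox windows, with the distance from the window's low-coordinate end in kb on the x axis. Blocks are single peaks drawn to scale. The group 13 gene named at an end is from the RefSeq order on GRCm38.p6. Both H3K27ac rows are empty in all 4 panels, both H3K4me3 libraries have peaks in HoxA, and replicate 2 alone has them in HoxB.

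Set against the length of the windows, peak cover was highest in HoxA and lowest in HoxC for H3K4me2. H3K4me2 replicate 1 covered 11.1% of HoxA, 3.24% of HoxB, 1.17% of HoxC and 5.28% of HoxD. Replicate 2 covered 4.48%, 1.25%, 0.480% and 1.28% in the same order. The ranking was therefore the same in both libraries, with HoxB and HoxD nearly equal in replicate 2. Of the whole genome, the same libraries covered 3.31% and 3.58%. HoxA was thus above the genome level in both libraries, and HoxB and HoxC were below it in both. HoxD was above it in replicate 1 and below it in replicate 2.

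H3K4me3 covered 1.15% and 1.97% of HoxA in replicates 1 and 2, against 1.00% and 1.30% of the genome. It covered 1.04% of HoxB in replicate 2 alone. H3K4me1 covered 1.59%, 0% and 1.07% of HoxA in replicates 1, 2 and 3, against 5.09%, 3.56% and 4.12% of the genome, and was below its genome level in every window and library. H3K27ac covered 2.52% and 2.07% of the genome and no base of the windows.

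**Figure D2:**
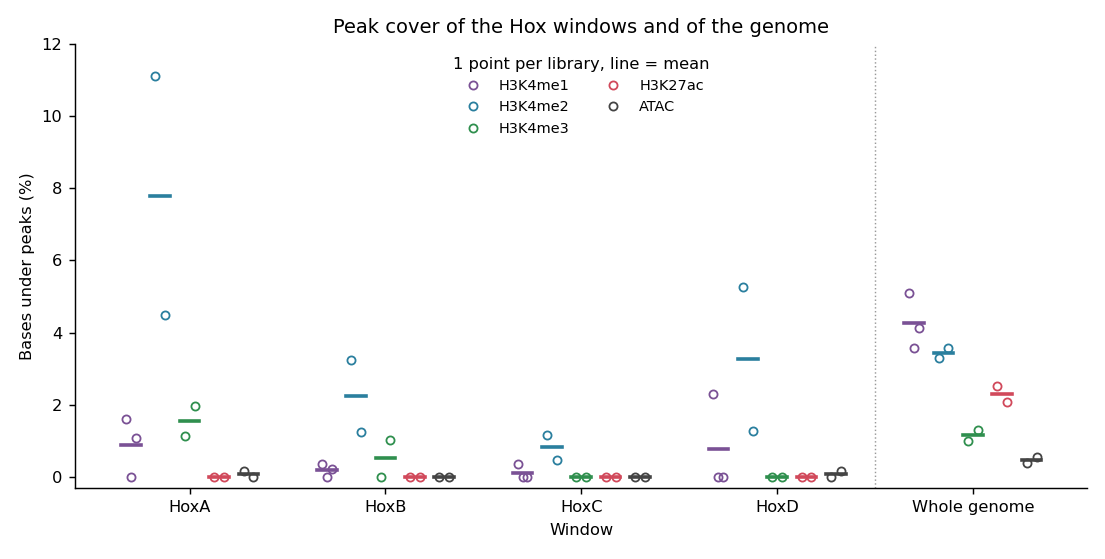
Percentage of bases under peaks in each Hox window and in the whole genome, with 1 open point per library and a line at the group mean. H3K4me2 in HoxA reaches 11.1% in replicate 1 and 4.48% in replicate 2, and both H3K27ac points lie at 0 in every window.

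The 4 windows combined had less peak cover than the genome in 8 of the 9 ChIP libraries. Mean cover was 0.998% in the windows and 2.95% in the genome, a difference of -1.95 percentage points ± 1.82 (SD, n = 9 libraries of 4 marks). In a two-sided exact sign-flip permutation test over the 9 libraries this gave p = 0.0195. That test treats the libraries as independent, while their titles carry 6 tags, and 3-18 and 3-25 are each shared by libraries of different marks. With the libraries of a tag flipped together, the exact permutation p was 0.0312, the smallest that 6 tags can give. H3K4me2 replicate 1 was the exception, at 4.86% of the windows and 3.31% of the genome. Libraries of different marks measure different quantities, so the test asks only whether windows and genome differ in cover within a library. It cannot say whether the windows are unusual, because all libraries read the same windows and peaks are spread unevenly over the genome. Of 20536 stretches of 125 kb, 65.3% held no H3K27ac peak of either library, so many other stretches also lie below the genome mean for that mark.

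Between clusters, no difference in cover passed the test. HoxA had more cover than HoxB by 1.70 percentage points ± 2.52 (SD, n = 9), with 6 libraries higher in HoxA and 3 without a peak in either (exact sign-flip permutation p = 0.0312, adjusted p = 0.0938 over the 6 pairs of windows). HoxA exceeded HoxC by 2.15 ± 3.18 points in the same 6 libraries (permutation adjusted p = 0.0938). HoxA exceeded HoxD by 1.39 ± 2.06 points, higher in 5 libraries and lower in 1 (permutation adjusted p = 0.0938). The library with more cover in HoxD was H3K4me1 replicate 1. The HoxB, HoxC and HoxD windows differed from each other with adjusted permutation p from 0.0938 to 0.438. H3K4me2 replicate 1 weighed most on these differences. Without it, HoxA exceeded HoxB by 0.923, HoxC by 1.18 and HoxD by 0.833 percentage points. Libraries without a peak in either window add nothing to the test. The exact permutation p of 0.0312 for HoxA minus HoxB was the smallest that the other 6 libraries can give. Adjustment over 6 pairs then left little room to pass, so the lack of a call does not show that the clusters are alike. Within a single mark the smallest p that the design allows is 0.25 for 3 libraries and 0.5 for 2.

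Only 3 consensus H3K4me3 regions, meaning merged peaks seen in both libraries, lay in the windows, and all were in HoxA. Each carried H3K4me2, and none carried consensus H3K27ac or a consensus ATAC site. The first, chr6:52108338-52108899 (562 bp), lay 13.3 kb from the window's low-coordinate end. Its fold enrichment over the caller's background, the authors' value, was 3.02 in replicate 1 and 4.99 in replicate 2, and its −log10 q was 1.46 and 7.28. It was the region of highest mean fold, 4.01 ± 1.39 (SD, n = 2), and the libraries differed more here than at the others. The widest, chr6:52153748-52154558 (811 bp), lay at 58.7 kb, with a fold enrichment of 3.10 and 2.92. A peak of H3K4me1 replicate 1 covered 527 bp of it, and the other H3K4me1 libraries had none there. The third, chr6:52171430-52171737 (308 bp), lay at 76.4 kb, with a fold enrichment of 3.01 and 3.31. The single HoxA peak of ATAC replicate 1, chr6:52171712-52171911, overlapped its end by 26 bp.

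These regions were weak and narrow among the 13600 consensus H3K4me3 regions of the genome. Their mean fold enrichments, from 3.01 to 4.01, compare with a genome median of 7.94, and their widths, from 308 to 811 bp, with a median of 2021 bp. In order along the window, 20.5%, 3.23% and 5.43% of regions had a lower fold, and 3.18%, 9.04% and 0.0588% were narrower.

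H3K4me3 replicate 2 had 3 further peaks that replicate 1 lacked. One lay in HoxA at chr6:52141102-52142391 (1290 bp, fold enrichment 3.23), on an H3K4me2 region with peaks of H3K4me1 replicates 1 and 3. The HoxB peaks were chr11:96172541-96173074 (fold enrichment 2.73) and chr11:96180032-96181518 (1487 bp, fold enrichment 3.20). Each of these 3 lay on a consensus H3K4me2 region, and none met H3K27ac or ATAC. The share of all H3K4me3 peaks of replicate 2 that replicate 1 lacked was not worked out. These unshared peaks are therefore not shown to be a trait of the windows.

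**Figure D3:**
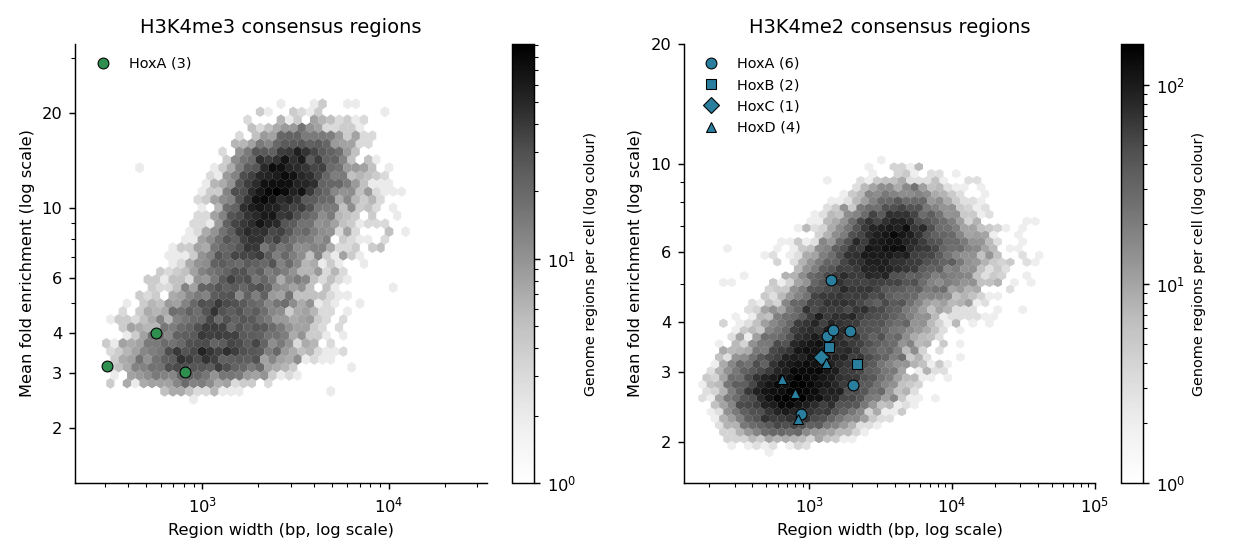
Width against mean fold enrichment, both on log scales, for all consensus H3K4me3 regions (left) and H3K4me2 regions (right) of the genome as a grey density, with the Hox regions as coloured symbols by cluster. The 3 HoxA H3K4me3 regions lie at folds of 3.01 to 4.01, and the 13 Hox H3K4me2 regions at 2.29 to 5.10.

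With regard to H3K27ac and open chromatin, all 3 Hox H3K4me3 regions fell in the class with neither, a class that holds 16.9% of all H3K4me3 regions. The marks are of whole fetal liver and the ATAC sites of proerythroblasts only. A missing ATAC site therefore does not show closed chromatin in the cells that carry a mark. H3K27ac met 0 of 3 (exact Clopper-Pearson 95% interval 0% to 70.8%), against 68.3% of all H3K4me3 regions and 37.7% of the 2345 regions within the range of fold of the Hox regions. As no window held an H3K27ac peak, this count was fixed in advance and adds nothing to that absence. A consensus ATAC site met 0 of 3, against 78.8% of all and 44.1% of those in the same range of fold. No window held a consensus ATAC site, so this count was fixed in advance too. H3K27ac and ATAC were both present at 63.9% of all regions and 28.8% in the same range, and at 0 of 3 Hox regions. Of regions in the same range of fold, 47% carried neither. The counts for both and for neither were fixed in the same way. The interval for neither, 29.2% to 100%, covers counting error only and, for a fixed count, is no test against these shares. The 3 counts therefore do not separate the Hox regions from other H3K4me3 regions, of like fold or not. Shares in the same range of fold, here and below, were matched on fold only and not on width. H3K4me2 met 3 of 3, as at 99.5% of all H3K4me3 regions and 98.3% in the same range. Consensus H3K4me1 met 0 of 3, against 84.3% and 59.3%, a count also fixed in advance because no window held a consensus H3K4me1 region.

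Read library by library, the result for H3K27ac was the same. Of the 3 Hox peaks of H3K4me3 replicate 1 and the 6 of replicate 2, none met a peak of either H3K27ac library, while 64.0% to 71.2% of all peaks of those H3K4me3 libraries did. For ATAC, 1 peak of each H3K4me3 library met a peak of ATAC replicate 1 and none met ATAC replicate 2, while 70.5% to 84.2% of all H3K4me3 peaks met an ATAC peak of a single library.

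The 13 consensus H3K4me2 regions, a larger set, also carried no consensus H3K27ac, ATAC or H3K4me1. H3K27ac met 0 of 13 (exact 95% interval 0% to 24.7%), against 42.5% of all 35821 H3K4me2 regions and 26.1% of the 23410 within the same range of fold. Since no window held an H3K27ac peak, this count adds nothing to that absence. ATAC met 0 of 13, against 36.6% of all and 14.2% of those in the same range. Consensus H3K4me1 met 0 of 13, against 71.8% and 62.2%. No window held a consensus ATAC site or H3K4me1 region, so both of these counts were fixed in advance as well. H3K4me3 met 3 of 13 (23.1%, interval 5.04% to 53.8%), against 36.1% of all and 12.8% in the same range. The other 10 met no consensus region of the other 3 marks or ATAC, against 21.2% of all H3K4me2 regions and 29.5% in the same range. With the other counts fixed, this number only restates the H3K4me3 count. Of these 10, however, 6 held a peak of at least 1 library of H3K4me1 or H3K4me3. The same share was not worked out for the other H3K4me2 regions of the genome, so it is a description only. The intervals cover counting error only, and neighbouring regions of a cluster are not independent. All 13 had neither H3K27ac nor ATAC (interval 75.3% to 100%), against 49.4% and 67.7%. That count was fixed in advance too, so its interval is no test against these shares. H3K4me1 replicate 2, whose peaks a consensus region requires, had no Hox peak. In H3K4me2 replicate 2, 5 of its 13 Hox peaks met an H3K4me1 peak of replicate 1 and 2 met one of replicate 3, against 86.3% and 78.1% of all its peaks.

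**Figure D4:**
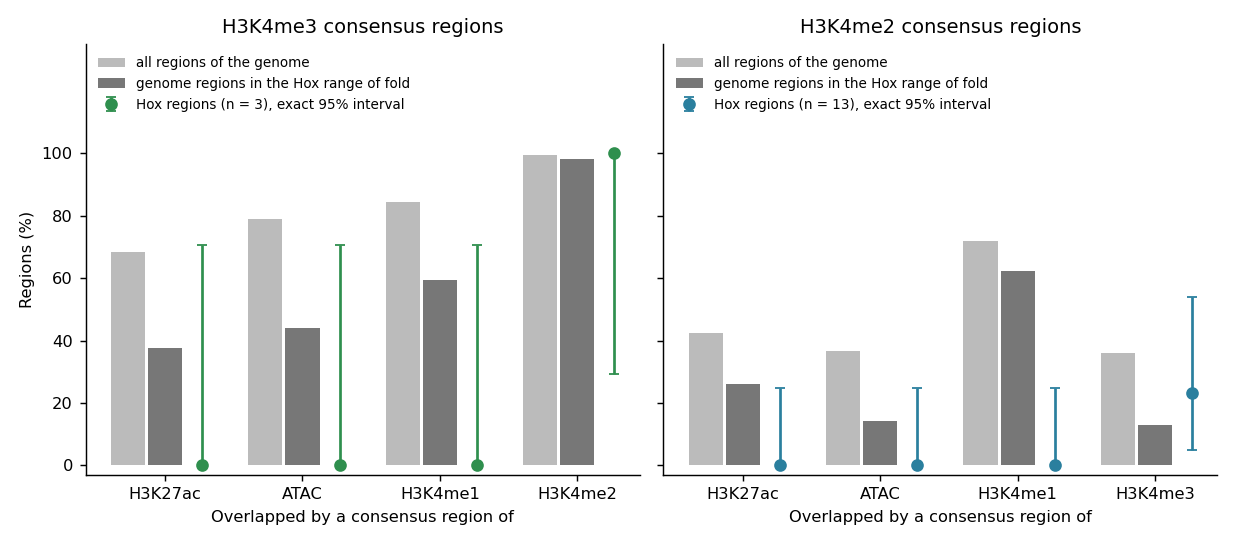
Percentage of consensus H3K4me3 (left) and H3K4me2 (right) regions overlapped by a consensus region of each other mark or ATAC. Light bars are all regions of the genome, dark bars are genome regions in the range of fold of the Hox regions, and points are the Hox regions with exact 95% intervals. The Hox points for H3K27ac, ATAC and H3K4me1 lie at 0 in both panels, as no window held a consensus region of these.

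The 4 H3K4me2 regions of highest mean fold were all in HoxA, and the same 4 were highest in replicate 1. In replicate 2 the HoxB region chr11:96172163-96173538, at 3.154, lay just above the HoxA regions at 3.150 and 3.045. The region chr6:52107614-52109040 (1427 bp), which contains the first H3K4me3 region, had an H3K4me2 fold enrichment of 5.70 and 4.51 in replicates 1 and 2, above 68.5% of H3K4me2 regions of the genome. It was the highest of all 13. The region chr6:52140833-52142778 had 4.46 and 3.15, chr6:52153464-52154794 had 4.35 and 3.04, and chr6:52170793-52172267 had 3.92 and 3.73. Those around the 3 consensus H3K4me3 regions were thus 3 of these 4. The remaining HoxA regions, chr6:52161461-52163472 and chr6:52167134-52168015, had mean folds of 2.79 and 2.36 and no H3K4me3.

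HoxB, HoxC and HoxD had 2, 1 and 4 H3K4me2 regions, against 6 in HoxA. The HoxB regions were chr11:96172163-96173538, with a fold enrichment of 3.80 and 3.15, and chr11:96179442-96181615, with 3.59 and 2.69. Both lay on the side of the window away from Hoxb13. The only HoxC region was chr15:102829210-102830419, with 3.75 and 2.81, on the side away from Hoxc13. The 4 HoxD regions had mean folds of 2.29, 3.16, 2.65 and 2.89. They lay at 3.55, 19.9, 45.7 and 111 kb from the Hoxd13 end, and none had an H3K4me3 peak of either library. Over the 13 regions the median H3K4me2 fold was 3.16 against 3.79 in the genome, and 10 of 13 were below the genome median.

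The libraries of H3K4me2 differed in number of peaks by more in the Hox windows than in the genome. Replicate 1 had 42334 peaks in all and replicate 2 had 41765, but 33 and 13 in the windows. Each of the 13 peaks of replicate 2 met a peak of replicate 1, and 20 peaks of replicate 1 (6 in HoxA, 6 in HoxB, 2 in HoxC and 6 in HoxD) met none in replicate 2. Those 20 had a median −log10 q of 2.47, against 5.81 for the 26 peaks met by both libraries. The share of all H3K4me2 peaks, or of those of like fold, that miss the other library was not worked out. The unshared peaks are therefore not shown to be a trait of the windows. H3K4me2 replicate 1 and H3K4me3 replicate 2, the libraries with more Hox peaks of their marks, share the title tag 3-18, and the libraries with fewer share the tag 3-25. What the tags stand for is not stated in the labels, and their part in the result was not tested. H3K27ac replicate 1, also tagged 3-18, had no Hox peak.

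Accessible chromatin of proerythroblasts was seen in the windows at single sites of single libraries. ATAC replicate 1 had chr6:52171712-52171911 in HoxA, with the authors' fold enrichment of 3.81 and a −log10 q of 4.19, and ATAC replicate 2 had chr2:74553942-74554141 in HoxD, with 4.35 and 4.27. Both peaks were 200 bp wide, and their folds were above 8.97% and 21.0% of the peaks of their libraries. The HoxD peak overlapped an H3K4me2 peak of replicate 1 alone. HoxB and HoxC had no ATAC peak. Across all 11 lists, 59 of the 67 Hox peaks had a fold enrichment below the median of their own library, and 19 had a −log10 q of at least 5. Of those 19, 13 were among the 33 peaks of H3K4me2 replicate 1, 5 among the 13 of replicate 2 and 1 among the 6 of H3K4me3 replicate 2. Over all peaks of these 3 libraries the shares at that level were 60.2%, 50.5% and 72.2%. No Hox peak of H3K4me3 replicate 1 (3 peaks), ATAC replicates 1 and 2 (1 each) or H3K4me1 replicates 1 and 3 (8 and 2) reached it. Over all peaks of those libraries the shares were 73.3%, 88.8%, 88.9%, 27.1% and 24.5%.

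Large parts of the windows held no peak of any library. In HoxB the longest such stretch ran for 87.9 kb (chr11:96045000-96132867), 45.1% of the window, from the Hoxb13 end inward. In HoxC it ran for 67.6 kb (chr15:102740000-102807608), 48.3% of the window, from the Hoxc13 end. In HoxA it was 30.0 kb (chr6:52180081-52210032), on the Hoxa13 side, and in HoxD 22.2 kb (chr2:74565498-74587648), on the side away from Hoxd13. Peaks of any library covered 11.4% of HoxA, 3.35% of HoxB, 1.17% of HoxC and 5.76% of HoxD. In HoxA, HoxB and HoxC the longest empty stretch was therefore on the side of the group 13 gene, and in HoxD it was on the other side. No gene was placed on mm9, so which Hox genes these stretches hold, or how much lies between genes, was not determined.

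The stretch without H3K27ac extended well past each window. From the nearest H3K27ac peak on one side to the nearest on the other it measured 700 kb around HoxB, 550 kb around HoxA, 362 kb around HoxC and 243 kb around HoxD. A gap that holds a whole window had to be long, so these lengths are a description and were not ranked against other gaps. The nearest ATAC peak lay 107 kb below and 381 kb above the HoxB window, and 72.5 and 48.7 kb from the HoxD window. The nearest H3K4me3 peak lay 112 kb above HoxC and 48.3 kb above HoxD.

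How often sequence with this much H3K4me2 lacks H3K27ac was read from all 20536 tiles of 125 kb in the genome. Of these, 65.3% held no H3K27ac peak of either library, so the absence alone is common. Of the 667 tiles with 6 consensus H3K4me2 regions, as in HoxA, 5.85% had none, and of the 1115 with 4, as in HoxD, 13%. Of tiles with 2, as in HoxB, 39.5% had none, and of tiles with 1, as in HoxC, 67.2%. The HoxB and HoxC windows are longer than a tile. The Hox regions are weak, and in tiles with no H3K4me2 region above the highest Hox fold the shares were higher. They were 22.5% of 89 tiles with 6 regions, 40.6% of 251 with 4, 65.5% of 878 with 2 and 82.1% of 2022 with 1. For consensus ATAC the shares of these tiles without a site were 37.1%, 55%, 75.4% and 86.3%. The bound on fold, 5.10, came from HoxA. The highest mean folds in HoxB, HoxC and HoxD were lower, at 3.48, 3.28 and 3.16, and tiles bounded at those folds were not counted.

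**Figure D5:**
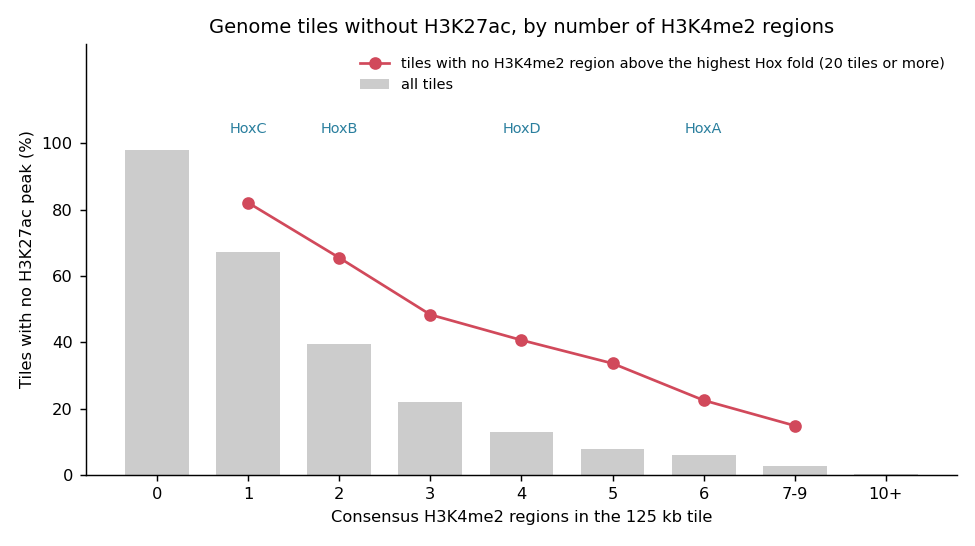
Percentage of 125 kb tiles of the genome with no H3K27ac peak of either library, by the number of consensus H3K4me2 regions in the tile. Bars are all tiles, points are tiles in which no H3K4me2 region exceeds the highest Hox fold (drawn where there are 20 or more), and the cluster names stand above their own number of regions. At 6 regions, the number in HoxA, the bar is at 5.85% and the point at 22.5%.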

How the data were processed

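ChIP-seq libraries of whole fetal liver and ATAC-seq libraries of proerythroblasts were used as the 11 peak lists the authors deposited, 1 list per library and none pooled. Per the submitters' processing notes, the build was mm9 and the tools included MACS2, SAMtools, Bowtie 1.0.1 and Trimmomatic 0.32. Their settings, the MACS2 version and the control were not given in the sources used here. Deposited columns hold, per peak, the authors' fold enrichment (a ratio to the background of the caller), the −log10 p and −log10 q, and a score that follows the −log10 q. Depth is unknown, so no signal was tested between libraries, and fold enrichments of different marks are not comparable.

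The 19 autosomes and both sex chromosomes were analysed with Python 3.11.15, NumPy 2.4.6 and SciPy 1.17.1, and 7 mitochondrial peaks were set aside. Positions are mm9, counted from 1. A consensus region was a merged stretch with at least 1 peak of every library of the mark. Overlap meant at least 1 bp. Cover was the share of bases under peaks, and that of the genome was taken over the 2568.43 Mb between the first and last peak of each chromosome. Overlap and permutation code was tested on simulated peak lists. The naming rule took, in each window, the widest and highest H3K4me3 region, the regions of the smallest H3K27ac and ATAC class, the widest H3K27ac region, consensus ATAC sites and the longest empty stretch, and the promoters with most and fewest CG. As there were few, all 13 H3K4me2 regions and the single-library H3K4me3 and ATAC peaks were named after their values were seen. The comparison with the genome, the H3K4me2 shares, the ranges of fold and the tiles were also added after the data were seen. The windows, lists and rules were chosen with earlier results of these data known.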

Additional observations from a re-analysis of the deposited data

How the results depend on the processing

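The 26 values and tests were recomputed under up to 17 alternatives, of which 11 leave out 1 library each. No direction turned and no test changed side. A cover was counted as moved beyond 1 SD between libraries, a share outside its exact 95% interval and a count beyond 1.5 times, and 11 recomputed values moved. These tolerances are wide: without a library, the share of H3K4me3 regions with ATAC ran from 0% to 33.3% and H3K4me3 cover of HoxB from 0% to 1.04%. H3K27ac cover of every window was 0% throughout, as it had to be, since no alternative adds a peak. With −log10 q of at least 5, the Hox windows held 0 consensus H3K4me3 regions and 5 of H3K4me2, and H3K4me3 covered 0.224% of HoxA, so shares of H3K4me3 regions could not be given there. Counting regions of any library gave 6 H3K4me3 and 33 H3K4me2 regions and 1 ATAC site each in HoxA and HoxD. Leaving out a library gave 3 to 6 H3K4me3 regions (6 without H3K4me3 replicate 1), 13 to 33 H3K4me2 regions (33 without H3K4me2 replicate 2), and 0 to 1 ATAC sites in HoxA (1 without ATAC replicate 2) and in HoxD (1 without ATAC replicate 1). These changes follow from fewer or more libraries being required. The share of H3K4me3 regions with neither H3K27ac nor ATAC ran from 66.7% to 100% when a library was left out, the lower value without ATAC replicate 2. The cover of the windows against the genome kept exact permutation p from 0.00391 to 0.0391 over all alternatives, at -2.39 to -1.69 points when a library was left out. HoxA minus HoxB kept adjusted permutation p from 0.0938 to 0.5, and was 0.923 to 1.91 points when a library was left out and 0.945 points at −log10 q of at least 5. No paired analysis was possible because no value compares groups of samples. Title tags are shared across some marks, but the labels do not say what they stand for, and flipping the libraries of a tag together, chosen after seeing the data, changed no call. The lists give no depth, so an absent peak sets no bound on a level.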

Other observations

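A blood-related motif was counted in the same Hox promoter entries. AGATAA, a common form of the site bound by GATA factors, was searched on both strands in the 250 bases upstream of the start. It was in 0 of 24 Hox entries and in 9.99% of all 32851 entries. Entries were found for 3 of 10 HoxB genes and 1 of 9 HoxC genes, so those clusters are hardly covered, and no match says only that these letters are not in this window.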
